A study of Homo sapiens with 6 samples.

Results

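The genes described here are TXNIP, the arrestin-domain genes ARRDC1 to ARRDC4 and the Mondo factor genes MLXIP and MLXIPL, taken from the gene table by their symbols. These are 7 of the 35993 genes in the table. Read counts came from 6 RNA-seq libraries of MIA PaCa-2 cells, an established line of human pancreatic carcinoma. For 3 libraries the cells were left untreated (Control), and for 3 they received 4 µM rhCYGB for 48 h. rhCYGB is a His-tagged recombinant form of human cytoglobin, a heme protein that binds oxygen, made in E. coli and added to the medium. All cells had been moved before treatment into medium with 1% FBS, so low serum is common to both groups, and a single cell line at 1 dose and 1 time was measured. The labels do not say whether Control cells received a vehicle or whether the libraries came from separate cultures, so the p-values measure only the spread between these libraries.

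TXNIP and the ARRDC proteins are alpha-arrestins, a family of adaptor proteins with an arrestin fold. Most of them carry tails that recruit ubiquitin ligases of the NEDD4 family, and through these they direct membrane proteins such as receptors and transporters into endocytosis. TXNIP also binds reduced thioredoxin and lowers glucose uptake by acting on the transporter encoded by SLC2A1. MLXIP (MondoA) and MLXIPL (ChREBP) are transcription factors that sense phosphorylated sugars, pair with MLX and bind carbohydrate response elements, and TXNIP and ARRDC4 are among their best known targets.

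The 6 libraries held between 34838399 and 42271299 read counts, and a floor of 3 counts corresponded to 0.0669 to 0.0901 CPM (counts scaled to library size, here with edgeR's TMM factors). After removal of genes with too few counts, 14728 genes were tested with edgeR's quasi-likelihood test, and a gene was called at an adjusted p under 0.05. The common dispersion was 0.00300, so that small differences were called. Of the markers of the line, KRT8, KRT18 and VIM were abundant, CDKN2A had 0 counts in every library and CDH1 had 2 counts in 1 Control library and 0 in the others. Of 10 markers of fibroblasts, leukocytes and endothelial cells, 4 were tested and 3 were lower after rhCYGB, namely COL1A2, CD14 and CDH5. Their summed level over the 10 genes was 58.7 to 58.8 FPKM (fragments scaled to transcript length and depth) in Control and 5.80 to 6.62 FPKM after rhCYGB, with PTPRC and PECAM1 at 0 in every library. The part of these markers in the results below was not tested.

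Of the 7 genes, 6 were detected in every library and ARRDC4 was detected in none. TXNIP was lower after rhCYGB treatment, whereas ARRDC1, ARRDC2, ARRDC3, MLXIP and MLXIPL were higher. Among all genes tested, 39.0% were called higher and 38.6% lower, so 5 members higher and 1 lower of 6 is to be read against a background in which most genes were called. At a fold change of at least 2, 12.4% of all genes tested were higher and 14.7% lower, and ARRDC3 was the only member to pass that limit, as a higher gene. None of the 6 had overlapping groups in normalised read count. The share of all genes tested that separate in this way was not computed, so this does not set the members apart. In these bulk samples, fewer cells that express a gene and less RNA per cell cannot be told apart.

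**Figure D1:**
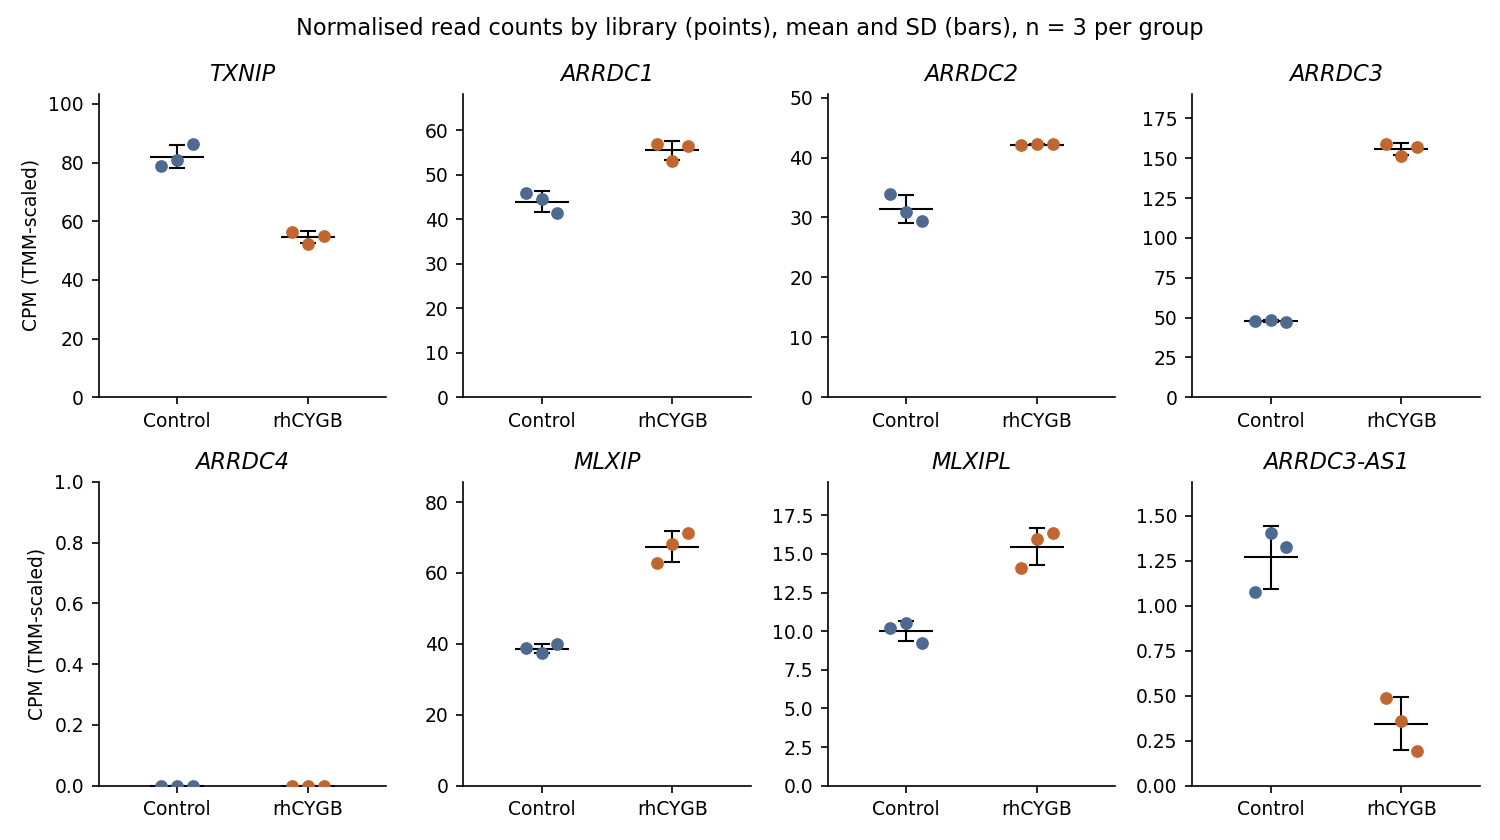
Normalised read counts (CPM, TMM-scaled, axes from 0) of the 7 genes and of the antisense gene ARRDC3-AS1 in the 3 Control and 3 rhCYGB libraries, with points for libraries and bars for the mean and SD. TXNIP and ARRDC3-AS1 are lower in all 3 rhCYGB libraries, ARRDC4 is at 0, and the other 5 genes are higher in all 3, ARRDC3 by the widest margin (48 against 156 CPM).

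TXNIP (gene ID 10628) lies at chr1:145438490-145442635 in the deposited table, whose build is not named. It was counted 2943, 3626 and 3521 times in Control libraries 1, 2 and 3, and 2091, 1739 and 2027 times in rhCYGB libraries 1, 2 and 3. In normalised counts this was 79.0, 80.9 and 86.3 CPM in Control and 56.3, 52.3 and 55.0 CPM after rhCYGB. Every treated library was below every untreated one. The means were 82.1 ± 3.81 and 54.5 ± 2.05 CPM (SD, n = 3 each), a fall of 1.51-fold by edgeR (log2 fold change −0.59, SE 0.048, 95% interval −0.69 to −0.49, adjusted p = 2.18e-08). The change was moderate within these libraries, since 25.9% of the genes tested had a lower log2 fold change. Per length, TXNIP went from 26.4 ± 1.43 to 15.6 ± 0.858 FPKM, which took its level from above that of 84.0% of the genes tested to above that of 75.2%. FPKM lacks the TMM factors. Without them (total counts) the log2 fold change of TXNIP by edgeR was −0.76 in place of −0.59.

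The promoter of TXNIP is known as a binding region of the Mondo factors, and its sequence is shown for that reason. RefSeq windows on GRCh38.p14, reaching from 250 bases before an annotated transcript start to 50 bases from the start on, were searched for CACGTG (the palindromic E-box, read on both strands), for sites reading CACGNG on either strand, for pairs of such sites with exactly 5 bases between them (the layout of a carbohydrate response element), and for CCAAT on either strand. CACGTG also counts as a CACGNG site. The 7 genes had 10 such windows. Below are the 250 bases before the upstream start of TXNIP, chr1:145996580-145996829 on the minus strand, with capitals for CACGNG sites and for CCAAT on either strand.

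TXNIP upstream start: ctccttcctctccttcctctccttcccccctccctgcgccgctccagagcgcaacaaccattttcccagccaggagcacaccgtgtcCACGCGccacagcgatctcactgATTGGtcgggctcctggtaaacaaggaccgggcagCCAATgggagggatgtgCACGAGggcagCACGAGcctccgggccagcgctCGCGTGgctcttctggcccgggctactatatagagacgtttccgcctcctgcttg

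This window held a pair of CACGAG sites 5 bases apart, at −88 to −72 from the start, and was the only window of the 7 genes to hold a pair. A pair of this kind stood in 27 of 35116 promoter windows of the table (0.0769%). The window had 4 CACGNG sites in all and 2 CCAAT boxes, in ATTGG orientation at −140 to −136 and in CCAAT orientation at −105 to −101. Single CACGNG sites stood in 30.5% and CCAAT boxes in 34.6% of all windows. A match is a description of the letters and not a measured site.

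ARRDC4 (gene ID 91947, chr15:98503933-98517063 in the deposited table), the alpha-arrestin that is closest to TXNIP in its known response to glucose, had 0 counts in all 6 libraries. At these depths a count of 0 allows up to 3 counts a library, that is up to 0.0669 to 0.0901 CPM, so no difference was detectable. Its promoter is shown beside that of TXNIP because both genes are textbook Mondo targets. The bases before its start are chr15:97960453-97960702 on the plus strand of GRCh38.p14, with the same capitals.

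ARRDC4: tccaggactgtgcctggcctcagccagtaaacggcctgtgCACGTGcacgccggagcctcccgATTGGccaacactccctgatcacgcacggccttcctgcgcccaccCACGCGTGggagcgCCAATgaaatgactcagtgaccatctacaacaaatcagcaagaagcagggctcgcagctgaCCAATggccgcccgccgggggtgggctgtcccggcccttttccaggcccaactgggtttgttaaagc

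The ARRDC4 window held a palindromic CACGTG at −210 to −205, a match found in 7.26% of all windows and in no other window of the 7 genes. It also had an overlapping couple of CACGNG sites between −142 and −135 and 3 CCAAT boxes, the last at −67 to −63. No pair with 5 bases between was present.

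**Figure D2:**
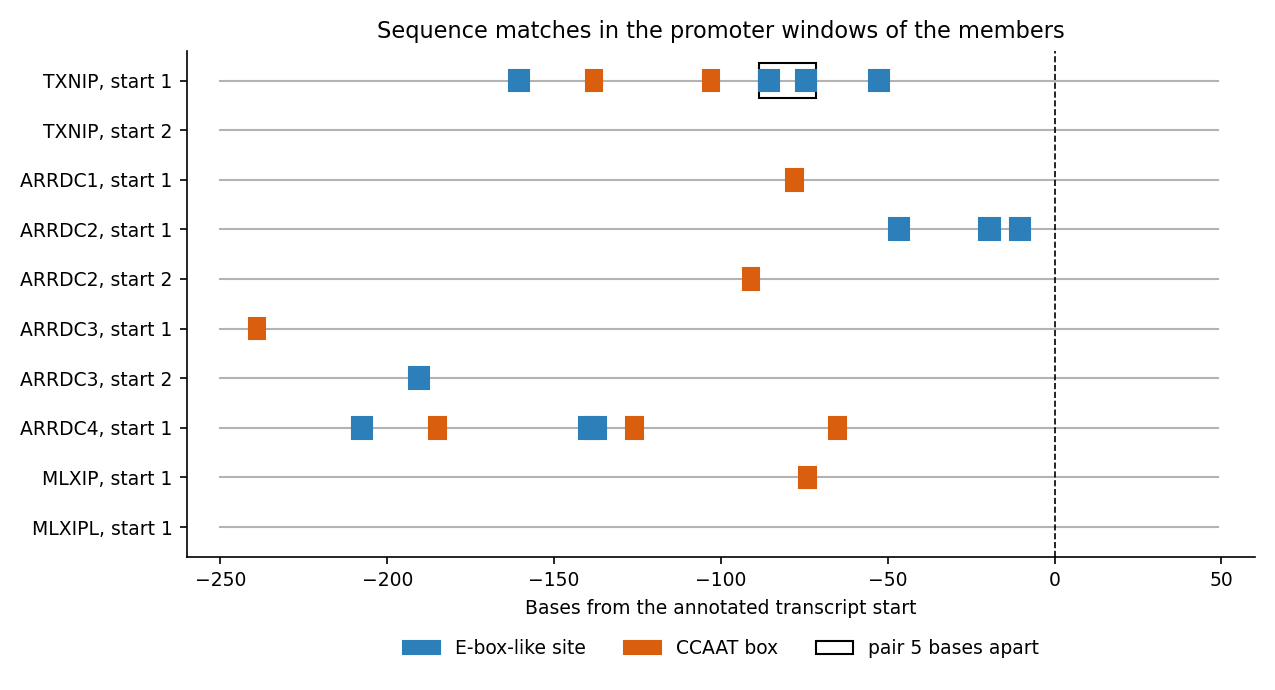
Positions of sequence matches in the 10 promoter windows of the 7 genes, in bases from the annotated transcript start (dashed line at 0), with blue boxes for CACGNG sites, orange boxes for CCAAT and an outline for a pair 5 bases apart. The upstream window of TXNIP holds the single pair, at −88 to −72, and the windows of MLXIPL and of the downstream TXNIP start hold no match.

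ARRDC3 (gene ID 57561, chr5:90664448-90679134) had the largest change of the 7 genes. Its protein is an adaptor for the endocytosis and ubiquitination of membrane proteins such as integrin beta4, and it is known as a growth-restraining gene of breast cancer. The counts were 1793, 2166 and 1926 in Control and 5905, 5037 and 5798 after rhCYGB. The normalised counts were close within each group, at 48.1, 48.3 and 47.2 CPM in Control and at 159, 151 and 157 CPM after rhCYGB. The groups were thus separated by more than 100 CPM with an SD of 0.588 and 3.96 CPM. ARRDC3 rose 3.25-fold (95% interval 3.07 to 3.46, log2 fold change 1.70, SE 0.040, adjusted p = 1.47e-14 by edgeR). It ranked 687th from the top among the 14728 genes tested, above 95.3% of them. The bases before its upstream start, shown because this gene moved most and chosen after its values were seen, are chr5:91383318-91383567 on the minus strand of GRCh38.p14.

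ARRDC3 upstream start: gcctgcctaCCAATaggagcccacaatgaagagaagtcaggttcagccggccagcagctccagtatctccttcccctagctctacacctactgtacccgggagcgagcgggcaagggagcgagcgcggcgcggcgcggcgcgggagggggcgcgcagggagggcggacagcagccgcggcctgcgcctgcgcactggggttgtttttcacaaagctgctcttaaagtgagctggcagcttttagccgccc

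This window held 1 CCAAT box, at −241 to −237, and no CACGNG site, while the window of the downstream start, 3220 bases away, had 1 CACGNG site. Transcripts from the upstream start held 98.3% of the ARRDC3 counts in Control and 98.9% after rhCYGB, so the rise came from that start as far as the authors' assignment of reads to transcripts shows. The main transcript, variant 1, rose by itself (log2 fold change 1.69, adjusted p = 5.3e-05 among 32577 transcripts).

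ARRDC3-AS1, a noncoding gene whose genomic span shares 2971 bases with that of ARRDC3 at its start (introns included, overlap of exons not computed), moved the other way. It had 40, 63 and 54 counts in Control and 18, 12 and 7 counts after rhCYGB. The groups did not overlap, and the gene was called lower (log2 fold change −1.87, SE 0.35, adjusted p = 1.86e-04 by edgeR). The library kit keeps strand, but the sources do not say whether reads were counted by strand, so reads of the pair may be shared in the overlap. ARRDC1-AS1, which shares 29 bases with the end of ARRDC1, had 221, 244 and 221 counts in Control and 224, 168 and 190 after rhCYGB and was not called (log2 fold change −0.047, adjusted p = 0.740).

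ARRDC1 and ARRDC2 rose by less. ARRDC1 (gene ID 92714, chr9:140500092-140509812) recruits TSG101 to the plasma membrane and drives the budding of vesicles from the cell surface. Its levels were 45.9, 44.5 and 41.3 CPM in Control and 56.9, 53.0 and 56.4 CPM after rhCYGB. The gap between the groups was narrow but none overlapped, and the rise was 1.26-fold (log2 fold change 0.34, SE 0.053, adjusted p = 2.90e-05 by edgeR). Without the scaling factors (total counts) the log2 fold change was 0.17 (adjusted p = 0.00651), still called. The single match in its promoter window was a CCAAT box.

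ARRDC2 (gene ID 27106, chr19:18111933-18124911), an adaptor whose functions are less well described, stood at 33.9, 30.9 and 29.4 CPM in Control and at 42.1, 42.2 and 42.2 CPM after rhCYGB. The treated libraries were almost identical, and the rise was 1.34-fold (log2 fold change 0.43, SE 0.058, adjusted p = 6.58e-06 by edgeR), and with total counts the log2 fold change was 0.26 (adjusted p = 7.72e-04). ARRDC2 has a pair of annotated starts 7046 bases apart, and the bases before each are shown because their shares of the counts are compared, a choice made after the values were seen. They are chr19:18000874-18001123 and chr19:18007920-18008169, both on the plus strand of GRCh38.p14.

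ARRDC2 upstream start: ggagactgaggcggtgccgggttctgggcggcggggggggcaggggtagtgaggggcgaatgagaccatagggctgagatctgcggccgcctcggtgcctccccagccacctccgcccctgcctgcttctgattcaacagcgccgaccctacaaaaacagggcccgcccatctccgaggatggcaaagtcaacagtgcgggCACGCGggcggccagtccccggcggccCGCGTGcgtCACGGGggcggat

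ARRDC2 downstream start: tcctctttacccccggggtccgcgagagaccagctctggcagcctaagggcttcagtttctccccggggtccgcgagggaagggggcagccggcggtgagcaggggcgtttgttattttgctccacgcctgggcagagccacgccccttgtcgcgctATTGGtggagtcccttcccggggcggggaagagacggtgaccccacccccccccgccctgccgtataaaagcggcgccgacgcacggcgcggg

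The upstream window had 3 CACGNG sites between −49 and −8 and no CCAAT box, and the downstream window had 1 CCAAT box at −93 to −89 and no CACGNG site. Transcripts from the upstream start had 797, 713 and 889 counts in Control and 1343, 1204 and 1248 after rhCYGB. Those from the downstream start had 468, 673 and 309 counts in Control and 220, 200 and 310 after rhCYGB. The upstream start thus rose in all 3 treated libraries, while the downstream counts of the groups touched at their ends. The upstream share was 63.0%, 51.4% and 74.2% in Control and 85.9%, 85.8% and 80.1% after rhCYGB. The mean share went from 62.9 ± 11.4% to 83.9 ± 3.31%, a difference of 21.0 percentage points, with p = 0.1 in an exact two-sided permutation test, the smallest value that 3 against 3 libraries can give. Reads common to both forms were divided by the authors' transcript assembly, and the spread among Control libraries was wide.

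**Figure D3:**
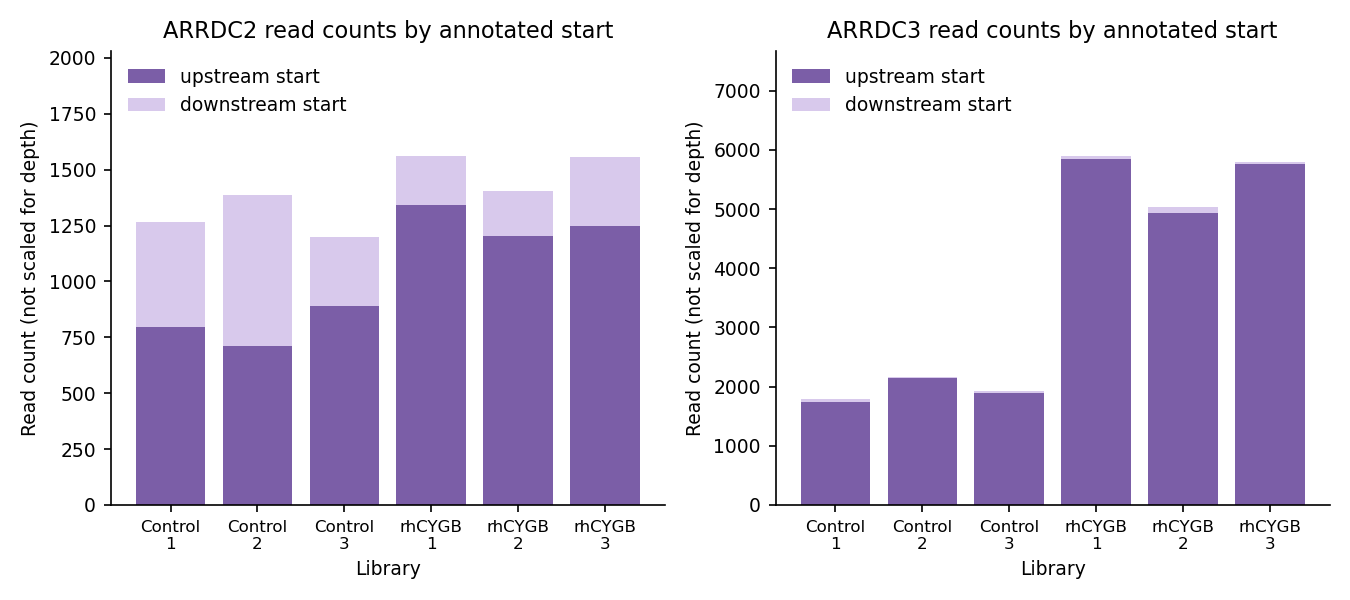
Read counts of ARRDC2 and ARRDC3 by library (bars from 0, not scaled for depth), divided by annotated transcript start. The downstream start of ARRDC2 holds 309 to 673 counts in Control and 200 to 310 after rhCYGB, whereas nearly all ARRDC3 counts lie on the upstream start in every library.

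The order of the alpha-arrestin genes was not the same in the groups when levels were taken per length. In Control, TXNIP (25.2 to 28.0 FPKM) and ARRDC1 (24.5 to 26.6 FPKM) overlapped at the top, followed by ARRDC2 (10.9 to 12.5 FPKM) and ARRDC3 (10.5 to 10.6 FPKM). After rhCYGB, ARRDC3 (29.0 to 31.5 FPKM) and ARRDC1 (27.0 to 30.0 FPKM) overlapped at the top, and TXNIP (14.6 to 16.2 FPKM) stood just above ARRDC2 (13.5 to 14.2 FPKM). MLXIP and MLXIPL were the lowest of the 6 detected members in both groups, in this order. Neighbours other than the overlapping couples kept apart in all 3 libraries of a group.

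Summed over the family, the level was 74.8, 73.9 and 73.8 FPKM in Control and 91.5, 84.2 and 91.7 FPKM after rhCYGB. FPKM lacks the TMM factors, which were 1.06 in each Control library and 0.932 to 0.955 after rhCYGB. The sum is therefore on another scale than the CPM results. TXNIP made up 33.7% to 37.9% of this sum in Control and 17.4% to 17.7% after rhCYGB. ARRDC3 went the other way, from 14.1% to 14.3% in Control to 34.3% to 34.4%. The ratio of ARRDC3 to TXNIP was 0.374 to 0.418 in Control and 1.94 to 1.98 after rhCYGB, so that the gene with the lower level in Control had the higher one after treatment (p = 0.1, exact permutation test, the smallest possible).

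**Figure D4:**
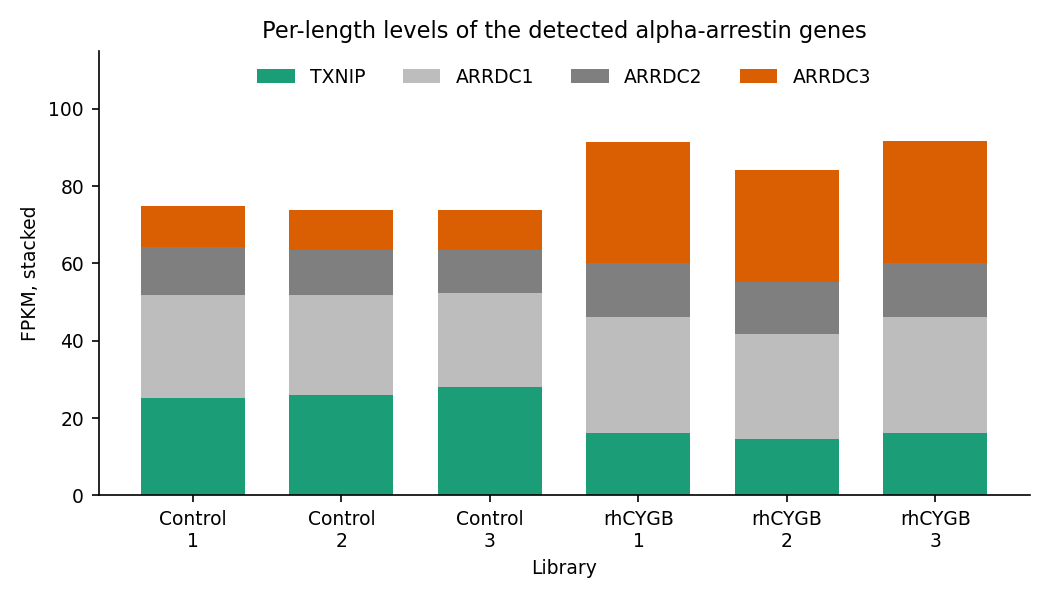
Stacked FPKM of the 4 detected alpha-arrestin genes in each library (bars from 0). The sum is 73.8 to 74.8 in Control and 84.2 to 91.7 after rhCYGB, with a smaller TXNIP segment and a larger ARRDC3 segment in each treated library. FPKM lacks the TMM factors used for CPM.

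Both Mondo factor genes were higher after rhCYGB. MLXIP (gene ID 22877, chr12:122516662-122631891), the Mondo factor that moves between the outer mitochondrial membrane and the nucleus, stood at 38.8, 37.3 and 39.9 CPM in Control and at 62.7, 68.2 and 71.4 CPM after rhCYGB. The treated libraries were all above the untreated ones, and the rise was 1.74-fold (log2 fold change 0.80, SE 0.055, adjusted p = 2.34e-09 by edgeR). MLXIPL (gene ID 51085, chr7:73007532-73038852), the factor known for lipid synthesis in liver, stood at 10.2, 10.6 and 9.27 CPM in Control and at 14.1, 16.0 and 16.4 CPM after rhCYGB. It rose 1.55-fold (log2 fold change 0.63, SE 0.089, adjusted p = 1.15e-05 by edgeR). With total counts, that is without the scaling factors, its log2 fold change was 0.46 (adjusted p = 3.19e-04 by edgeR). By limma it was 0.45 on log2(FPKM + 0.1) (adjusted p = 0.00128) and 0.36 on log2(FPKM + 1) (adjusted p = 0.00133). FPKM also lacks the TMM factors, and the pseudocount of 1 further understates changes of low genes. Per length, MLXIP was the more abundant of the pair in every library, by a factor of 1.37 to 1.66 in Control and 1.66 to 1.72 after rhCYGB.

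MLX, the partner without which neither factor binds DNA, had counts of 2027, 2542 and 2629 in Control and 3403, 2964 and 3506 after rhCYGB, and rose as well (log2 fold change 0.65, SE 0.057, adjusted p = 4.81e-08). Its level per length was 4.62 to 5.67 times that of MLXIP. The log2 ratio of MLXIP to MLX changed by 0.15 (exact permutation p = 0.2) and that of MLXIPL to MLX by −0.026 (exact permutation p = 0.8), where 0.1 is the smallest p that 3 against 3 libraries can give, so the test could not reach 0.05 for any ratio. MLX also pairs with repressors such as MXD1, MXD4 and MNT, and these moved in both directions. MXD1 rose (log2 fold change 1.74), as did MNT (1.43), and MXD4 fell (−1.87). Of MLX and its 3 other partners 3 were thus higher and 1 lower, against 39.0% higher and 38.6% lower over all genes tested. The median was 1.04 against −0.0046 over all genes tested.

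At the level of transcripts, 20 annotated transcripts belonged to the 7 genes and 15 could be tested. Of these, 4 were higher and 1 was lower, against 15.2% higher and 14.6% lower among all transcripts tested. The 5 were the main transcripts of 5 genes. Variant 1 of TXNIP fell (log2 fold change −0.67, adjusted p = 6.49e-04), and variant 1 of ARRDC1 (0.29), variant 2 of ARRDC2 (0.77), variant 1 of ARRDC3 (1.69) and the single transcript of MLXIP (0.73) rose. No transcript of MLXIPL was called, and the division of its reads varied between libraries of the same group. Its variant 2, for example, had 0, 0 and 173 counts in Control and 192, 65 and 0 after rhCYGB.

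Thioredoxin (TXN), the redox protein that TXNIP binds, was not called with TMM scaling. It had 6817, 8384 and 7433 counts in Control and 6803, 6065 and 6416 after rhCYGB, and its log2 fold change was −0.034 (SE 0.037, adjusted p = 0.408). In FPKM, which lacks the TMM factors, TXN stood at 230.0, 236.1 and 232.6 in Control and at 207.8, 200.8 and 200.2 after rhCYGB. Those groups did not overlap, so the level of TXN depends on the scaling. Per length, TXN exceeded TXNIP between 8.32-fold and 13.7-fold in the 6 libraries. The log2 ratio of TXNIP to TXN was −3.19, −3.19 and −3.06 in Control and −3.68, −3.78 and −3.64 after rhCYGB. The ratio was lower in all 3 treated libraries, by 0.56 on the log2 scale (p = 0.1, exact permutation test, the smallest possible).

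Of 7 genes listed around thioredoxin, 6 were tested, with 1 higher, 4 lower and 1 not called and a median log2 fold change of −0.30 (all genes tested: 39.0% higher, 38.6% lower, median −0.0046). TXNRD1, the cytosolic reductase of thioredoxin, rose (0.66). MAP3K5 (ASK1), the stress kinase that thioredoxin holds inactive, fell (−1.20), as did the reductase gene TXNRD3 (−1.19), the mitochondrial thioredoxin gene TXN2 (−0.33) and its reductase gene TXNRD2 (−0.27). The TXN2 and TXNRD2 falls were small beside the others.

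Among the genes of glucose entry, which TXNIP restrains at the membrane, SLC2A1 and HK2 changed more than TXNIP. SLC2A1, which encodes the glucose transporter GLUT1, had 2591, 3319 and 2793 counts in Control and 16216, 13195 and 15478 after rhCYGB (log2 fold change 2.56, SE 0.046, adjusted p = 9.86e-16). HK2, the hexokinase that traps glucose in the cell and is also a known Mondo target, had 2285, 2770 and 2393 counts in Control and 23500, 21482 and 24527 after rhCYGB (log2 fold change 3.42, SE 0.041, adjusted p = 4.02e-17). Of 10 listed genes of glucose entry and phosphorylation 7 were tested, with 4 higher, 1 lower and 2 not called and a median of 0.74 (all genes tested: 39.0% higher, 38.6% lower, median −0.0046). Here HKDC1 (2.73) and SLC2A3 (0.66) were the other higher genes and HK1 (−0.29) the lower one.

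The other known targets of the Mondo factors moved in both directions. Of 18 listed genes, 15 were tested, 6 were higher and 9 lower, with 4 and 7 of them past a fold change of 2, and the median log2 fold change was −0.99. Over all genes tested, 39.0% were higher and 38.6% lower, with 12.4% and 14.7% past a fold change of 2 and a median of −0.0046. PKLR, THRSP and G6PC had 0 counts in every library. The lower genes included the fatty acid synthesis genes FASN (−2.03, 1185 ± 38.3 against 290.1 ± 10.3 CPM, n = 3 each), ELOVL6 (−2.41), ACLY (−1.48), ACACA (−1.35), ACACB (−1.27) and SCD (−0.99). The higher genes were HK2, MID1IP1 (1.85), RGS16 (1.79), PFKFB3 (0.91), KLF10 (0.73) and FGF21. FGF21, a secreted hormone gene, had 0 counts in each Control library and 17, 31 and 42 after rhCYGB, at least 11.4-fold above the floor of 3 counts per library. With that gene set at its bound, the median of the list stayed at −0.99.

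The NEDD4-family ligases and their adaptors, through which alpha-arrestins act, moved in both directions. All 11 listed genes were tested, 6 were higher, 2 lower and 3 not called, against 39.0% higher and 38.6% lower over all genes tested, and the median was 0.38 against −0.0046. NEDD4 rose the most, from 30.2 ± 0.699 to 107.8 ± 1.15 CPM (log2 fold change 1.84), followed by SMURF1 (0.94) and SMURF2 (0.82). ITCH, the ligase known to ubiquitinate TXNIP, had 2889, 3343 and 3268 counts in Control and 4083, 3419 and 3820 after rhCYGB (0.45, SE 0.044, adjusted p = 1.91e-07). HECW2 (−0.66) and WWP1 (−0.25) fell.

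Of 4 factors of vesicle budding that work with ARRDC1, TSG101 (0.79) and PDCD6IP (0.24) rose, VPS4B (−0.25) fell and VPS4A was not called. The share over all genes tested was 39.0% higher and 38.6% lower, and the medians were 0.091 for the list and −0.0046 for all genes. The PDCD6IP groups overlapped in FPKM, which lacks the TMM factors, at 21.7 to 22.6 in Control and 22.4 to 24.4 after rhCYGB. VPS4A was lower in FPKM, at 24.5 to 27.0 in Control and 21.9 to 22.8 after rhCYGB, without overlap. Of 5 membrane proteins known as cargo of alpha-arrestins, 4 were higher and 1 lower, with a median of 0.40 (all genes tested: 39.0% higher, 38.6% lower, median −0.0046). Among these, the receptor genes NOTCH1 (log2 fold change 0.64) and INSR (0.40) and the integrin gene ITGB4 (0.24) rose, and the iron transporter gene SLC11A2 fell (−0.18). The rise of ITGB4 was seen with TMM scaling. Its groups overlapped in FPKM, at 25.7 to 26.6 in Control and 25.7 to 30.6 after rhCYGB.

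Among the other arrestin genes, ARRB1, a beta-arrestin gene of G protein-coupled receptor signalling, had 1163, 1378 and 1299 counts in Control and 209, 165 and 196 after rhCYGB (log2 fold change −2.56, SE 0.074, adjusted p = 1.14e-13). ARRB2 was not called (0.099, adjusted p = 0.114), and ARRDC5 and the visual arrestin genes SAG and ARR3 had 0 counts in every library. The alpha-arrestin ARRDC3 and the beta-arrestin ARRB1 showed the largest changes of the tested genes of their branches, in opposite directions.

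Of 12 listed genes that are known to act on TXNIP, 11 were higher and 1 lower, against 39.0% higher and 38.6% lower over all genes tested. Their median log2 fold change was 0.75 against −0.0046 over all genes, and the difference was not tested. PPARG (2.36), VDR (1.55) and FOXO3 (1.54), all transcription factor genes, changed the most among the higher genes. The genes of the CCAAT-binding factor NF-Y were called higher, namely NFYA (0.19), NFYB (0.44) and NFYC (0.75). In FPKM, which lacks the TMM factors, the NFYA groups overlapped, at 8.77 to 9.09 in Control and 8.23 to 9.73 after rhCYGB. PRKAA1 (0.41) and PRKAA2 (1.12) rose as well. They encode the catalytic subunits of AMPK, the kinase that marks the TXNIP protein for degradation. FOXO4 fell (−1.25).

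**Figure D5:**
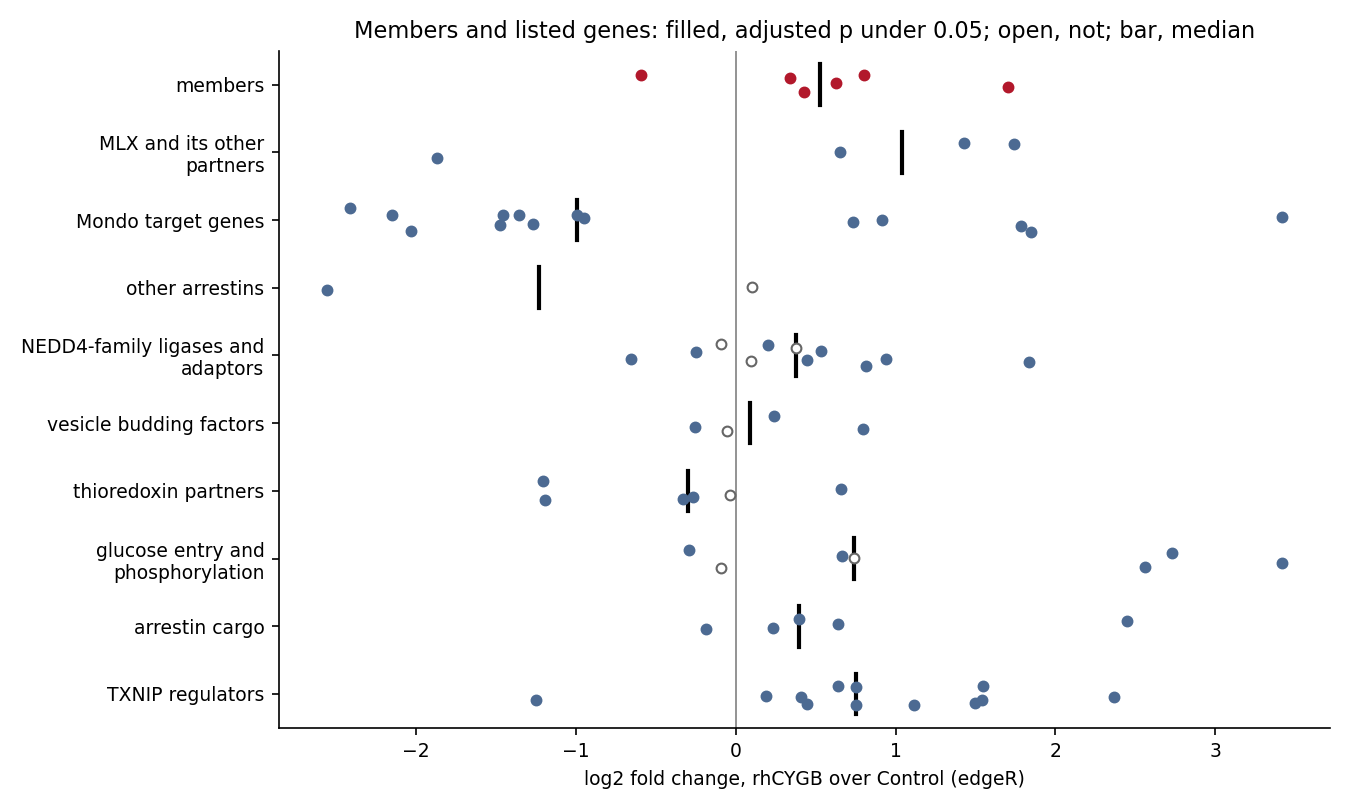
Log2 fold change (rhCYGB over Control, edgeR) of the 6 tested members and of the genes of 9 pathway lists, 1 point per gene, filled where the adjusted p was under 0.05, with a bar at the median of each list. FGF21, at 0 counts in Control, is counted in its list's median but not drawn, and the Mondo target genes spread on both sides of 0 with a median of −0.99.

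Over all 9 lists, 65 of 75 genes were tested and 57 were called in either direction. This is to be read against all genes tested, of which 39.0% were called higher and 38.6% lower. The genes whose course over the 6 libraries was most like that of TXNIP were sought among 11887 genes with enough counts, by the root mean square difference of log2 CPM after subtraction of each gene's Control mean. The 5 nearest were IPO11 (0.0226), ABCE1 (0.0235), PPIL1 (0.0263), CMTR1 (0.0266) and HNRNPH1 (0.0269). Their log2 fold changes lay between −0.61 and −0.58 and all were called lower, which follows from how they were chosen.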

How the data were processed

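Libraries (3 untreated, 3 rhCYGB) were grouped by their labels. The authors deposited read counts per gene and per transcript, without normalization, and FPKM values, scaled to transcript length and depth. The notes name FastQC 0.11.7, HISAT2 2.1.0, StringTie 2.1.3b and, as genome build, only the mouse build mm10, while the tables list human genes. The human build is not given in the sources used here, so table coordinates and GRCh38.p14 were kept apart. The 12 per-library TPM columns were not used.

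Counts were filtered with filterByExpr, scaled by TMM and tested with edgeR 4.0.16 (quasi-likelihood, R 4.3.3, no block), with Benjamini-Hochberg adjustment over all genes or transcripts tested. Alternatives used DESeq2 1.42.0 and limma 3.58.1. Floors cover counting error only. On simulated counts edgeR recovered 200 of 200 genes changed 2-fold, with 8 false calls of 14617 genes tested, and 139 of 197 transcripts changed 8-fold, with 7 false calls of 33098. The changed genes and transcripts were drawn only from those with enough counts and a dispersion no higher than the median. Few were changed, whereas most genes were called in these data, so the recovery does not extend to noisier genes or to this setting. No library was a copy of another (chi-square per degree of freedom within groups 4.81 to 6.88).

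Members and lists were chosen with earlier results of these data known. The text names all members, genes overlapping them, MLX, TXN, ITCH, ARRDC5, SLC2A1, HK2, up to 3 called genes per list with the largest change and a mean of at least 100 counts in the higher group, and the 5 genes most like TXNIP. Other genes were named after their values were seen, and 1 listed gene is not reported here by name. Promoter letters are from RefSeq, and all 7 genes matched by symbol. Protein sequences were not used here.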

Additional observations from a re-analysis of the deposited data

How the results depend on the processing

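All 6 tested members kept their direction and their call under 15 alternatives, which covered DESeq2 size factors and Wald test, upper-quartile factors, total counts, limma on log2(FPKM + 1) or log2(FPKM + 0.1), no or a stricter count filter, a block on the replicate number, and omission of each library. The ranges of log2 fold change were −0.76 to −0.55 for TXNIP, 0.17 to 0.37 for ARRDC1, 0.24 to 0.48 for ARRDC2, 1.46 to 1.72 for ARRDC3, 0.54 to 0.86 for MLXIP and 0.36 to 0.70 for MLXIPL, and the highest adjusted p was 0.0163, for ARRDC1. ARRDC3 alone passed a fold change of 2 in each. Listed genes called ranged from 56 to 59 and member transcripts called from 4 to 6. Total counts, upper-quartile factors and FPKM moved the median of all genes by −0.17, −0.14 and −0.15 (log2), with 41.0%, 42.4% and 41.2% of called genes higher in place of 50.2%. With the replicate block 6 members and 57 listed genes were called. The same-numbered libraries' deviations had correlations of −0.048, 0.0072 and 0.0055, so no shared deviation by number was seen. Whether same-numbered libraries were handled together cannot be told from these correlations. The ARRDC2 start share, whose alternatives were chosen after seeing the data, differed by 15.3 to 26.7 percentage points. ARRDC3-AS1 ranged from −2.20 to −0.40 under 14 alternatives, the last on log2(FPKM + 1), which understates changes of low genes.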
